A study of Mus musculus with 16 samples.

Results

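Described here are 9 cytoskeletal genes in mouse hepatoma cells that lack exon 5 of Eef1d, namely the 2 cytoplasmic actin genes (Actb and Actg1), the 2 nonmuscle alpha-actinin genes (Actn1 and Actn4), the 4 tropomyosin genes (Tpm1, Tpm2, Tpm3 and Tpm4) and Tpm3-rs7, a processed copy of Tpm3 that has its own entry in the annotation. These 9 genes were taken by name from 22392 genes in the count table. They have 51 of its 67139 annotated transcripts, and each gene is represented by its transcript with the most counts over the 16 libraries. The members were chosen by these names, and selected on values already known, since they were proposed after changes of translation efficiency (TE) in the clone KO1 were known for Tpm1, Tpm3-rs7 and Actg1, so all values of KO1 against WT are given as a description, with no p-value, and counts of members past the threshold in KO1 are partly fixed by that choice. WT libraries also served that comparison, so the tests of KO2 and KO3 against WT share samples with it. The comparison of KO3 with KO2 does not.

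The cells were Hepa1-6, an established mouse liver tumor line, unmodified (WT) or edited with CRISPR-Cas9 so that exon 5 of Eef1d was deleted. Eef1d encodes a subunit of the EEF1B complex, which reloads the elongation factor that brings aminoacyl-tRNA to the ribosome. Each knockout line (KO1, KO2 and KO3) grew from 1 clone, and no further agent was given to any group. Per the study's methods, KO1 and KO2 were made with the same pair of guide RNAs and KO3 with another pair. Every line had 2 replicates, and from each lysate both ribosome footprints (Ribo-seq) and total transcripts (RNA-seq) were sequenced, to ask whether loss of exon 5 changes translation. Because a line is 1 clone with 2 replicates, p-values measure the spread between replicates of that clone and do not separate exon 5 from other differences between clones.

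Actin monomers assemble into filaments that give cells their shape and carry tension. Beta-actin (Actb) and gamma-actin (Actg1) are nearly the same protein and are made by most cells. Alpha-actinins are dimers that cross-link filaments into bundles, and tropomyosins are coiled-coil dimers that lie along the filament and decide which myosins and severing proteins reach it. Several of these genes respond to the factor SRF and its actin-sensing partner MRTF. The coding sequences of the actins and tropomyosins, and of their pseudogenes, are so alike that short reads can fit more than 1 gene.

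The sequences below show how far reads can tell the near-identical members apart. The coding sequences of Actb and Actg1 have 1128 nt each, with 128 differences and 88.65% identity. Their first 90 bases, with the 16 differing bases in capitals, read in GRCm38 from the minus strands of chr5:142905597-142905686 and chr11:120348002-120348091, both coding:
Actb: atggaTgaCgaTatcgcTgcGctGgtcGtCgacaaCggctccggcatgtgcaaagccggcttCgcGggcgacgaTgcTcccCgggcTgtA
Actg1: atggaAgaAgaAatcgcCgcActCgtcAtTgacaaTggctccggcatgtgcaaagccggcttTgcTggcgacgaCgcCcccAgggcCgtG

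Further along, both actins share an unbroken run of 62 nt, longer than a ribosome footprint, from base 889 to base 950 of the coding sequence. It is shown in lower case between the differing bases in capitals, from chr5:142904091-142904172 and chr11:120346661-120346742, minus strand, coding:
Actb: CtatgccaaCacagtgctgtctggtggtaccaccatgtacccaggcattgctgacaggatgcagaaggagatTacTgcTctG
Actg1: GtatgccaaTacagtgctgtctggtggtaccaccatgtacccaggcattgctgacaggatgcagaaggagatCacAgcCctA

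Tpm3 and Tpm3-rs7 are far closer. Their coding sequences of 747 nt differ at 3 bases, at positions 72, 98 and 127 from the start codon, which leaves 99.6% identity and a shared run of 620 nt. Bases 62 to 151 hold all 3 differences, in capitals. The stretch of Tpm3-rs7, which has no introns there, is chr14:113314737-113314826 on the plus strand, and that of Tpm3 spans exons on chromosome 3:
Tpm3: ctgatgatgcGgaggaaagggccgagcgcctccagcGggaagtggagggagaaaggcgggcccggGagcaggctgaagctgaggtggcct
Tpm3-rs7: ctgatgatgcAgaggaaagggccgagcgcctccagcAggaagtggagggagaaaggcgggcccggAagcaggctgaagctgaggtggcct

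Tpm1 makes several proteins from 1 gene. Its short forms Tpm1.8 and Tpm1.9 (RefSeq names) use either of a pair of 76-nt exons that cover bases 456 to 531 of the coding sequence. The exon of Tpm1.8 is chr9:67031951-67032026 and that of Tpm1.9 is chr9:67032466-67032541, minus strand, and capitals mark the 33 bases that differ:
Tpm1.8: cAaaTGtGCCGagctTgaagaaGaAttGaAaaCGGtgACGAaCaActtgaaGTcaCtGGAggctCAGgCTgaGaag
Tpm1.9: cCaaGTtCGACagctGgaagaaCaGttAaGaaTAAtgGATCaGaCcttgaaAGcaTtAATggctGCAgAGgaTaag

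These likenesses were measured over the counted coding sequence of each transcript, which leaves out 5 codons at each end. Of all 30-nt windows of Actg1, a length close to that of a footprint, 100% also occurred elsewhere in the genome, at a median of 4 other loci and at most 13, and 10.29% occurred in Actb. For Actb 48.08% of windows occurred elsewhere. Of the windows of Tpm3, 87.65% occurred in Tpm3-rs7, and 49.56% of those of Tpm4 occurred at another locus. The transcript of Tpm1 had 0% of its 688 windows elsewhere, and Actn1 and Actn4 had 2.90% and 3.17%. With 100-nt windows, closer to the length of an RNA-seq fragment, 91.69% of Actg1 windows still occurred elsewhere, against 2.00% for Actb. At that length 81.88% of Tpm3 windows occurred in Tpm3-rs7, and 23.62% of Tpm4 windows at another locus. With transcripts of other genes counted too, 61.48% of 30-nt and 29.29% of 100-nt windows of Tpm4 occurred outside the gene. The study's read statistics list uniquely mapped reads, but whether the count table holds those alone, and how it counts a read that fits several transcripts, is not stated in the sources used here, so values of Actg1, Tpm3, Tpm3-rs7 and, in part, Actb and Tpm4 are uncertain in their split between loci. Actg1, with 100% of its 30-nt windows also elsewhere, still had 16379 and 10818 footprint counts in the WT replicates. How reads that fit several loci entered the counts was not tested.

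The labels were checked before the members were compared. The count of an Eef1d transcript that holds exon 5 was compared with that of a transcript without it. It marked the knockout lines, at 89.8% to 92.6% in the 6 KO RNA-seq libraries and at 116% in both WT libraries. Reads on exons that the transcripts share count on both, so these percents do not measure how much exon 5 remains. Summed over transcripts, RNA-seq libraries held 24726706 to 30748268 counts and Ribo-seq libraries 2604223 to 11147904, with the lowest in KO1 replicate 2. All 10 hepatocyte markers were listed, with a summed RNA level in TPM (counts per codon scaled to the same total in each library) of 1183 to 1266 in WT, 452 to 456 in KO1, with 884 to 962 in KO2 and with 1722 to 1820 in KO3, while Apoa1, Ttr and Serpina1a, which mark mature hepatocytes, were below 3 TPM in every library. Of 12 markers of muscle and fibroblasts, which express other actins and tropomyosins, Myog and Thy1 had 0 counts and Dcn alone stood above 2 TPM, at 638 to 949. The summed hepatocyte markers thus differed between lines, lowest in KO1, and their part in the results was not tested. The sum rests mostly on Alb, Afp and Trf, with median levels of 332, 341 and 234 TPM. Single markers did not all follow it. In KO3, 3 of 7 tested markers were higher and 4 lower in RNA, beside 21.7% and 22.3% of all genes. Their median log2 change there was -0.36. In such bulk samples, fewer expressing cells and less RNA per cell cannot be told apart.

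In WT cells the members covered the whole range of expression. Levels here are TPM over 1 transcript per gene, which divides by counted length and so permits comparison between genes. Actb ranked 2 of 14487 genes by RNA, with 6239.8 and 6379.8 TPM in the 2 replicates, and Actg1 ranked 117, with 1652 and 1707. Next came Tpm3 (647 and 667), Tpm4 (552 and 557) and Tpm1 (517 and 524), then Actn4 (67.6 and 70.3), Actn1 (61.8 and 61.3), Tpm3-rs7 (28.0 and 27.4) and Tpm2 (2.37 and 2.33). No 2 neighbors in this order overlapped between replicates. Footprints kept most of that order, but Actn1 and Actn4 overlapped, at 59.6 and 66.8 against 60.8 and 64.5 TPM, and Tpm3-rs7 joined Tpm3, at 624 and 669 against 659 and 699 TPM.

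**Figure D1:**
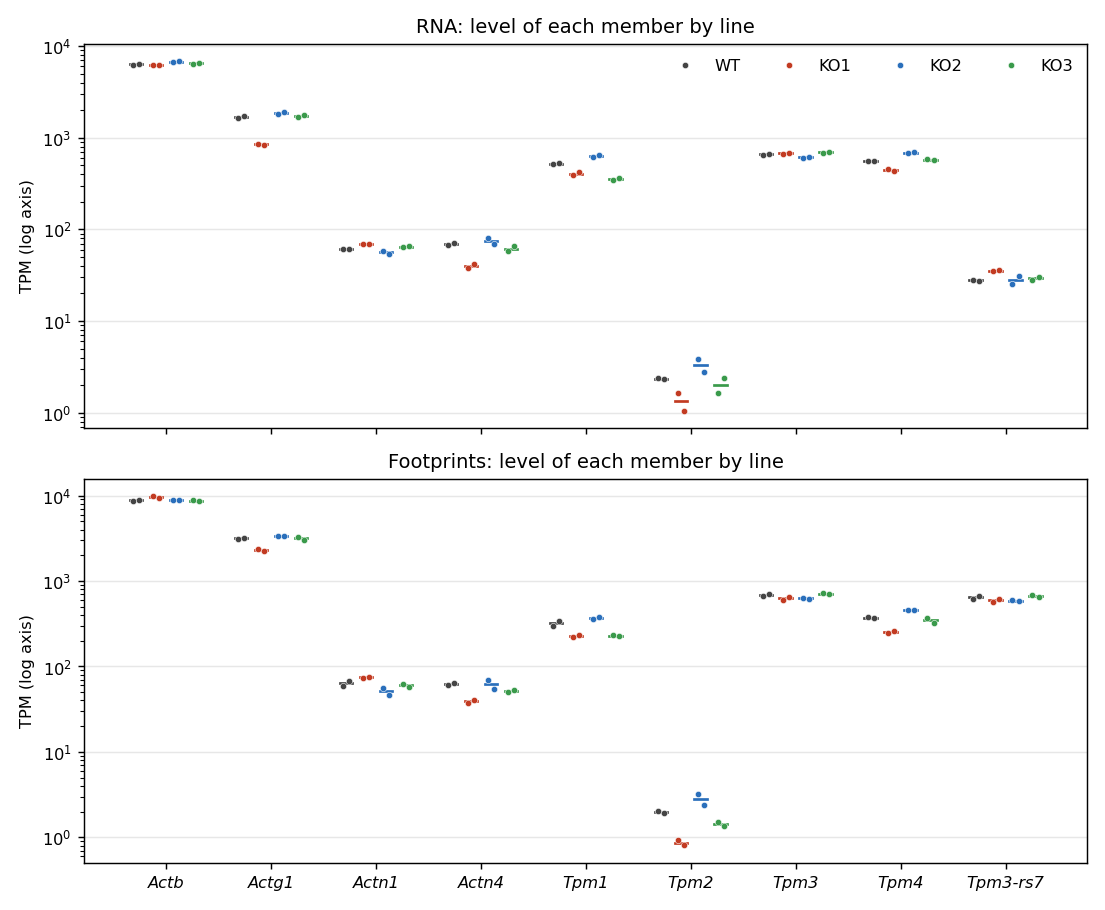
RNA (top) and footprint (bottom) levels of the 9 genes in TPM on a log axis. Each point is 1 library and each bar the mean of the 2 replicates of a line. Actb is highest and Tpm2 lowest in both panels, Actg1 of KO1 lies below the other lines in RNA, and Tpm3-rs7 stands beside Tpm3 only in footprints.

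Within each family, composition was unequal. Actg1 made up 20.9% and 21.1% of actin RNA (Actb plus Actg1) in the WT replicates. Of tropomyosin RNA without Tpm3-rs7, Tpm3 was 37.6% and 38.1%, Tpm4 32.1% and 31.8%, and Tpm1 30.1% and 29.9%, and Tpm2, which is abundant in muscle, was 0.138% and 0.133%. Actn1 and Actn4 shared alpha-actinin RNA nearly evenly, with 47.8% and 46.6% for Actn1.

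TE levels, the footprint TPM divided by the RNA TPM of the same lysate, also differed between the members. Over 6272 genes with at least 50 counts in each WT library, the median TE level in WT was 0.789 and the middle 50% lay between 0.550 and 1.05. Both actins were above that band, at 1.38 and 1.39 for Actb and 1.89 and 1.86 for Actg1. More of their 30-nt than of their 100-nt windows occurred elsewhere (48.08% against 2.00% for Actb, 100% against 91.69% for Actg1). The part of this difference in the TE levels of the actins was not tested. Tpm1 (0.579 and 0.647) and Tpm4 (0.677 and 0.656) were below the median, at the 31.2 and 37.1 percentiles, while Tpm3, Actn1 and Actn4 lay between 0.899 and 1.09. Tpm3-rs7 had TE levels of 22.3 and 24.4, at the 99.8 percentile. That ratio joins footprints that almost equal those of Tpm3 with RNA at 4.33% and 4.12% of the count of Tpm3, in 2 coding sequences with 3 differing bases.

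**Figure D2:**
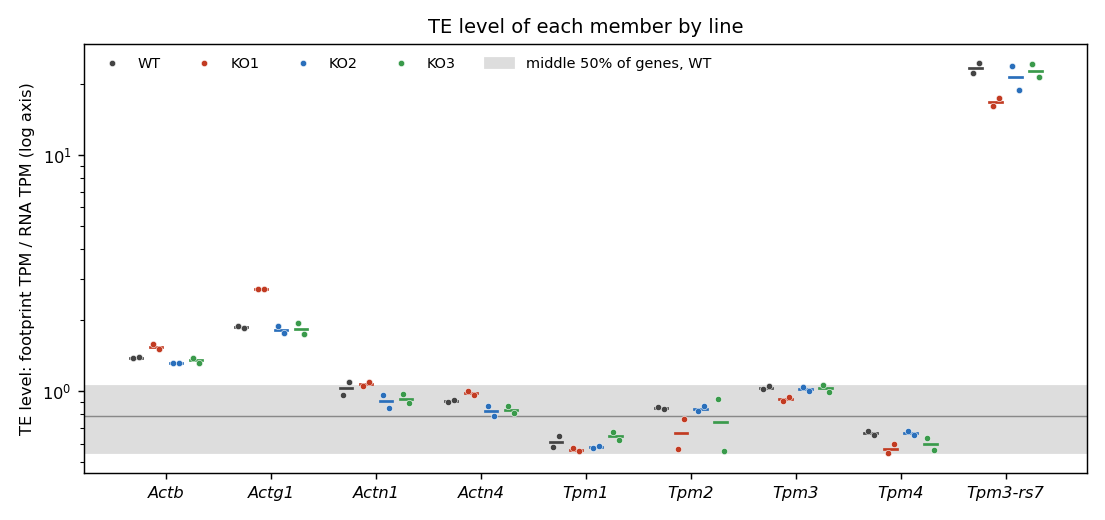
TE levels (footprint TPM divided by RNA TPM, log axis) of the 9 genes, with each point 1 lysate and each bar the mean of 2. The gray band holds the middle 50% of genes in WT, from 0.550 to 1.05, with its line at the median of 0.789. Both actins lie above it, Actg1 most of all in KO1 at 2.71 and 2.697, and Tpm3-rs7 stands far above the other members in each line.

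Actb, often used as a loading reference, had log2 changes of at most 0.13 in any line and assay. Its RNA was at 6239.8 and 6379.8 TPM in WT, 6228 and 6173 in KO1, with 6741 and 6787 in KO2 and with 6434 and 6474 in KO3. KO2 lay highest, and KO1 lay just below the WT pair. On the scale of the fits, which adjust each library by trimmed-mean (TMM) factors, RNA of Actb rose by a log2 change of 0.09 in KO2 (standard error, SE, 0.0298, edgeR adjusted p = 0.0429) and of 0.09 in KO3 (SE 0.0296, edgeR adjusted p = 0.0129), and the change in KO1 was 0.02 (SE 0.0256). Both calls were lost when a WT RNA-seq replicate was left out, with edgeR adjusted p-values of 0.257 to 0.427 in KO2 and 0.105 to 0.23 in KO3. Its footprints did not pass the test in KO2 or KO3 (log2 changes of 0.06 in each, edgeR adjusted p = 0.579 and 0.481). In KO1 its footprints stood at 9867 and 9277 TPM, both above the 8639 and 8876 of WT, with changes of 0.13 (SE 0.0550) in footprints and 0.11 (SE 0.0587) in TE.

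Actg1 had the greatest fall in RNA among the members in KO1. Its RNA stood at 1652 and 1707 TPM in WT, 863 and 841 in KO1, with 1799 and 1931 in KO2 and with 1677 and 1749 in KO3. The KO1 mean was 50.8% of the WT mean, and no other line came near them. Footprints fell less far, from 3121 and 3171 TPM in WT to 2340.5 and 2269.6 in KO1, with 3398 and 3398 in KO2 and 3253 and 3050.05 in KO3. The log2 changes in KO1 were -0.94 for RNA (SE 0.0350), -0.44 for footprints (SE 0.0569) and 0.49 for TE (SE 0.0632). With the RNA of Actb nearly level, the share of Actg1 in actin RNA went from 20.9% and 21.1% in WT to 12.2% and 12.0% in KO1, and its share of actin footprints from 26.5% and 26.3% to 19.2% and 19.7%.

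In the other clones Actg1 stayed close to WT. RNA rose by a log2 change of 0.14 in KO2 (SE 0.0407, edgeR adjusted p = 0.0186), a call that was lost without either WT RNA-seq replicate or KO2 RNA-seq replicate 2 (edgeR adjusted p = 0.251, 0.093 and 0.0775). In KO3 the RNA change was 0.09 (SE 0.0366, edgeR adjusted p = 0.0588). TE changes were -0.01 in KO2 (SE 0.0693) and -0.02 in KO3 (SE 0.0613), with edgeR adjusted p-values of 1.00 and 0.991. Its share of actin RNA was 21.1% and 22.1% in KO2 and 20.7% and 21.3% in KO3.

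The higher TE of Actg1 in KO1 was not the same over its transcripts. Of its annotated transcripts, 6 passed the filter, and reads on shared exons count on each of them, so they are not independent. Both full-length forms, ENSMUST00000071555.12 and ENSMUST00000106215.10 (366 counted codons), had the same counts in every library. The short form ENSMUST00000089616.5 (96 codons), which holds the 62-nt run shared with Actb, had a TE change of 0.84 (SE 0.0794), and ENSMUST00000062147.13 (144 codons), which also holds it, had 0.70 (SE 0.0694). Without that run, ENSMUST00000128055.1 (258 codons) had 0.45 (SE 0.0698) and ENSMUST00000131103.8 (123 codons) had 0.09 (SE 0.0846).

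Their RNA changes were alike, from -1.06 to -0.93, and their footprints were what differed, from -0.84 in ENSMUST00000131103.8 to -0.21 in ENSMUST00000089616.5. Footprint counts of ENSMUST00000089616.5 were 25.1% to 25.4% of those of the full-length form in WT and 29.0% to 30.6% in KO1. Those of ENSMUST00000131103.8 were 20.8% to 22% in WT and 14.9% to 16.9% in KO1. By region of the gene, then, the footprint change of Actg1 in KO1 ran from one close to the RNA change to one far smaller. The share of 30-nt windows found in Actb was 12.7% in ENSMUST00000089616.5 and 8.82% in ENSMUST00000131103.8. It was highest in ENSMUST00000062147.13, at 13.4%, and lowest in ENSMUST00000128055.1, at 7.52%. The full-length form, which also holds the 62-nt run, had 10.29% and a TE change of 0.49. The part of this share, or of that run, in the TE changes was not tested.

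**Figure D3:**
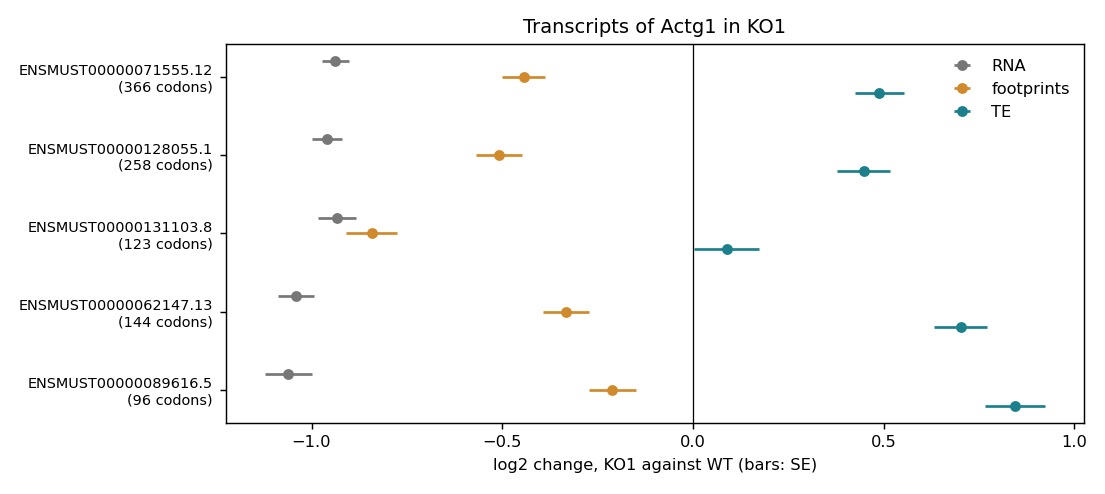
Log2 changes of KO1 against WT for transcripts of Actg1, with RNA in gray, footprints in orange and TE in teal, and bars of 1 SE. Counted codons stand under each transcript, and the second full-length form, with the same counts as the first, is not drawn. RNA points lie between -1.06 and -0.93, while footprints spread from -0.84 to -0.21 and TE from 0.09 to 0.84.

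Gamma-actin transcription is known to depend on SRF. Promoters of 7 of the 9 members were therefore searched on both strands for the CArG box, the element SRF binds. Of 8 promoters of 7 member genes in RefSeq (GRCm38.p6, 250 bases before to 50 after the start), 1 held it, that of Actg1, against 535 of 32851 promoters (1.63%). It lies in bases 90 to 81 before the start, and 60 bases around it, chr11:120348551-120348610 on the minus strand, are shown with the box in capitals:
Actg1 promoter: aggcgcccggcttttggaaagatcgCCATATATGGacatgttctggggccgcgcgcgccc
A match describes the letters only, and binding was not measured. Members outside these 7 genes had no promoter in the set, so the search does not show that they lack the box.

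The alpha-actinins moved in opposite directions in KO1. RNA of Actn4 stood at 67.6 and 70.3 TPM in WT, 37.6 and 41.8 in KO1, with 80.1 and 69.3 in KO2 and with 57.8 and 65.8 in KO3. RNA of Actn1 stood at 61.8 and 61.3 in WT, 69.3 and 69.2 in KO1, with 58.4 and 54.5 in KO2 and with 64.8 and 65.3 in KO3. KO1 was lowest for Actn4 and highest for Actn1, with no overlap with WT in either gene. Actn1 thereby went from 47.8% and 46.6% of alpha-actinin RNA in WT to 64.8% and 62.3% in KO1, and from 49.5% and 50.9% to 66.0% and 65.2% of alpha-actinin footprints.

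Footprints of the alpha-actinins followed their RNA in KO1. For Actn4 the log2 changes were -0.76 for RNA (SE 0.0612), -0.69 for footprints (SE 0.0867) and 0.06 for TE (SE 0.103). For Actn1 they were 0.21 (SE 0.0561), 0.24 (SE 0.0796) and 0.02 (SE 0.0929). In KO2 footprints of Actn1 fell by a log2 change of -0.26 (SE 0.0809, edgeR adjusted p = 0.0398), and in KO3 those of Actn4 fell by -0.21 (SE 0.0739, edgeR adjusted p = 0.0258). The first call was lost without WT Ribo-seq replicate 2 or KO2 Ribo-seq replicate 2 (-0.14 without the latter, edgeR adjusted p = 0.438), and the second without either WT replicate or KO3 replicate 1 (edgeR adjusted p = 0.113, 0.127 and 0.25). RNA of neither gene passed the test in KO2 or KO3.

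Tpm1 moved in each clone, and not in 1 direction. Its RNA was at 517 and 524 TPM in WT, 391 and 423 in KO1, with 619 and 645 in KO2 and with 344 and 366 in KO3. KO2 lay above WT, KO1 and KO3 lay below it, and none of these pairs overlapped another. RNA rose by a log2 change of 0.27 in KO2 (SE 0.0498, edgeR adjusted p = 0.000347) and fell by -0.49 in KO3 (SE 0.0509, edgeR adjusted p = 1.2e-11), and the change in KO1 was -0.31 (SE 0.0479). Both calls held whichever library was left out, with edgeR adjusted p-values of at most 0.0123 and 4.79e-10.

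Footprints of Tpm1 went with its RNA. They were at 299 and 339 TPM in WT, 224 and 236 in KO1, with 355 and 379.9 in KO2 and with 231 and 228 in KO3. They rose by a log2 change of 0.24 in KO2 (SE 0.0691, edgeR adjusted p = 0.0231), which was not called without WT Ribo-seq replicate 1 (edgeR adjusted p = 0.37) or KO2 Ribo-seq replicate 2 (0.156), and fell by -0.40 in KO3 (SE 0.0698, edgeR adjusted p = 7.21e-06). TE changes were -0.16 in KO1 (SE 0.0899), -0.04 in KO2 (SE 0.0880, edgeR adjusted p = 1.00) and 0.09 in KO3 (SE 0.0861, edgeR adjusted p = 0.903).

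Tpm4, which encodes a short tropomyosin of stress fibers and of the cell cortex, had RNA at 552 and 557 TPM in WT, 456 and 435 in KO1, with 676 and 696 in KO2 and with 582 and 570.1 in KO3. KO1 was again below WT and KO2 above it. RNA rose by a log2 change of 0.30 in KO2 (SE 0.0486, edgeR adjusted p = 9.48e-05), and so did footprints, by 0.33 (SE 0.0645, edgeR adjusted p = 0.000487), from 374 and 365 TPM to 461 and 454. In KO3 the changes were 0.11 for RNA (edgeR adjusted p = 0.0580) and -0.03 for footprints (edgeR adjusted p = 0.768). In KO1, where RNA was lower by -0.28 (SE 0.0467) and footprints by -0.55 (SE 0.0762), footprints stood at 249 and 259.9 TPM and the TE change was -0.28 (SE 0.0862).

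Tpm3, the most abundant tropomyosin in WT, moved less. RNA was at 647 and 667 TPM in WT, 665 and 682 in KO1, with 607 and 619 in KO2 and with 679.8 and 702 in KO3. It rose in KO3 by a log2 change of 0.13 (SE 0.0460, edgeR adjusted p = 0.0209), a call lost without either WT RNA-seq replicate (edgeR adjusted p = 0.226 and 0.0999), and was -0.11 in KO2 (edgeR adjusted p = 0.136). Tpm2 was too low for the footprint fits, with RNA of 1.05 to 3.88 TPM in the 8 libraries, and passed the test nowhere (an RNA log2 change of 0.47 for KO2, edgeR adjusted p = 0.407, and of -0.16 for KO3, edgeR adjusted p = 0.772).

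As shares of tropomyosin RNA over the 4 genes, Tpm1 went from 30.1% and 29.9% in WT to 25.8% and 27.5% in KO1, with 32.5% and 32.8% in KO2 and with 21.4% and 22.3% in KO3. The gene with the greatest share was Tpm3 in WT, KO1 and KO3, at 37.6% to 44.3%, and Tpm4 in KO2, at 35.5% in both replicates. KO3 had the least Tpm1 in the mixture, in RNA and in footprints (17.5% and 18.3%, against 22.4% and 24.1% in WT).

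The alternative exons of Tpm1 also differed in their use between lines. The RNA count of the Tpm1.9 transcript was 89.4% of that of Tpm1.8 in both WT libraries, 100.6% and 101.0% in KO1, 83.7% in both KO2 libraries and 89.1% and 90.7% in KO3. Most reads of these transcripts fall on exons they share, so the ratio understates how far the exons themselves differ. KO1 lay above and KO2 below the other lines in RNA, and in footprints KO1 alone stood apart, at 100.2% and 104.7% against 90.3% to 94.2% in the other lines. Across all transcripts that hold either exon in full, RNA changes in KO1 ran from -0.34 to -0.28 for 10 transcripts with the Tpm1.8 exon and from -0.14 to -0.02 for 6 with the Tpm1.9 exon.

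In KO2 the order of the exons was the other way. RNA changes of the 10 transcripts with the Tpm1.8 exon were 0.27 to 0.31, all 10 called, and those of the 6 with the Tpm1.9 exon 0.15 to 0.18, with 3 called. In KO3 both sets fell alike, by -0.49 to -0.47 and -0.49 to -0.46, and all 16 transcripts were called. Reads on shared exons count on each of these transcripts, so their calls are not independent. Of all transcripts tested in RNA, 5762 of 37472 were called in KO2 and 13880 of 37543 in KO3. The difference between the sets was not tested.

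**Figure D4:**
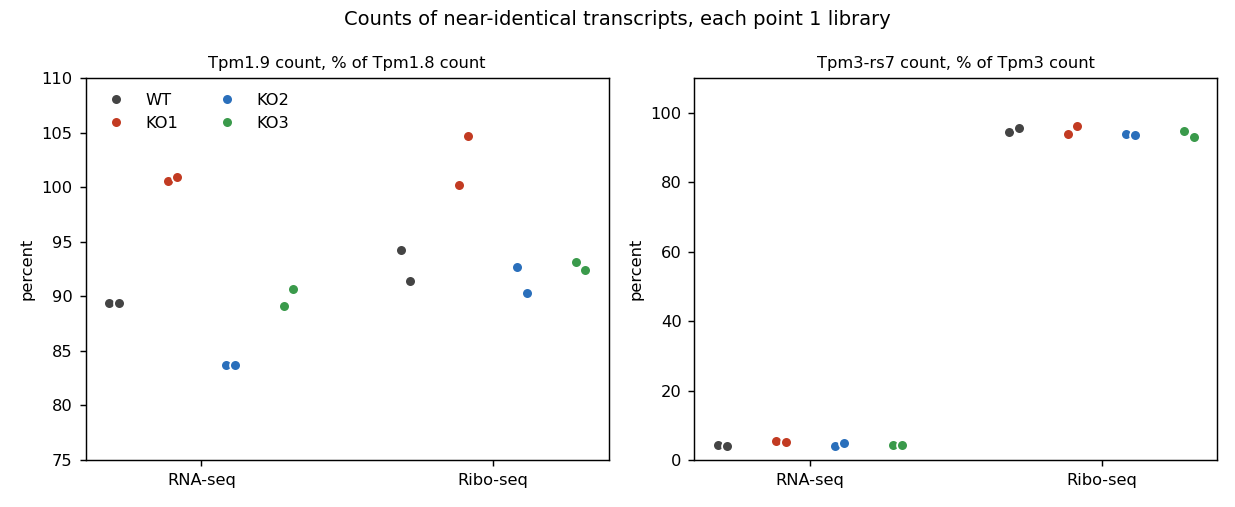
Left, the count of the Tpm1.9 transcript as a percent of that of Tpm1.8. Right, the count of Tpm3-rs7 as a percent of that of Tpm3. Each point is 1 library. In RNA, KO1 has the highest and KO2 the lowest Tpm1.9 percent, and Tpm3-rs7 takes 4.12% to 5.34% of the Tpm3 count in RNA but 93.2% to 96.4% in footprints.

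A further Tpm1 transcript, ENSMUST00000129733.7 (148 codons), holds neither exon in full, since its coding sequence ends within that of Tpm1.9, and had been known for its TE in KO1 beforehand. Its RNA counts were 212 and 221 in WT and 310 and 312 in KO1, where those of the main transcripts were lower, and its footprint counts were 208 and 143 in WT and 259 and 49 in KO1. These gave a TE change of -0.80 (SE 0.177) in KO1, and KO2 and KO3 had 0.16 and 0.20, with edgeR adjusted p-values of 1.00 and 0.902. The low footprint count of KO1 replicate 2 came from the shallowest library.

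Tpm3-rs7 had RNA of 28.0 and 27.4 TPM in WT, 35.5 and 35.6 in KO1, with 25.1 and 30.9 in KO2 and with 28.3 and 30.5 in KO3. Its footprints were at 624 and 669 TPM in WT and 569.7 and 623 in KO1. Only in KO1 did RNA lie clear of the other lines. Log2 changes there were 0.40 for RNA (SE 0.119), -0.12 for footprints (SE 0.0664) and -0.53 for TE (SE 0.111), and the footprint change of Tpm3 was the same to 2 digits (-0.12, SE 0.0657). In all 8 Ribo-seq libraries the footprint count of Tpm3-rs7 was 93.2% to 96.4% of that of Tpm3, so the footprint values of this gene and of Tpm3 went together. How footprints split between the 2 loci was not tested. TE changes of Tpm3-rs7 were -0.12 in KO2 (SE 0.120) and -0.03 in KO3 (SE 0.111), with edgeR adjusted p-values of 1.00 and 0.993.

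Counted over the members, RNA was called for 4 of 9 in KO2 and for 3 in KO3, beside 19.9% and 44% of all genes tested. In KO2 all 4 were higher (Actb, Actg1, Tpm1 and Tpm4), where 10.9% of all genes were called higher, and in KO3 Actb and Tpm3 were higher (21.7% of all genes) and Tpm1 lower (22.3%). Footprints were called for 3 of 8 members tested in KO2 and for 2 in KO3, beside 11% and 29% of all genes. In KO2 Tpm1 and Tpm4 were higher (5.83% of all genes were) and Actn1 lower (5.15%), and in KO3 Tpm1 and Actn4 were lower (15.8%). By DESeq2, only Tpm1 and Tpm4 in RNA and Tpm4 in footprints were called in KO2, and only Tpm1, in both, in KO3. Median RNA changes of the members were -0.28 in KO1, 0.10 in KO2 and 0.09 in KO3, beside 0.01, -0.01 and -0.01 for all genes. In KO1, which was used to choose the members, 6 of 9 passed the threshold in RNA (46.7% of all genes did) and 5 of 8 in footprints (26.5%), and nothing is read from these counts.

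For TE, no member was called in KO2 or KO3, where 0.0259% and 0.121% of all genes were, by the edgeR quasi-likelihood test. At an unadjusted p under 0.05 the count was 0 in both clones, and by DESeq2 it was also 0. Apart from Tpm2 (SE 0.649 and 0.721), TE changes of the members lay between -0.14 and 0.09 in these clones with SEs of 0.0559 to 0.120. Median TE changes were -0.04 in KO2 and -0.03 in KO3, beside -0.01 and -0.02 for all genes. In KO1 the members past the threshold were Actg1 (higher) and Tpm3-rs7 (lower), whose TE had put them on the list, and Tpm4 (-0.29) passed as well with a term for the lysate. Of all genes, 0.146% passed there, and nothing is read from the members' count beside it.

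**Figure D5:**
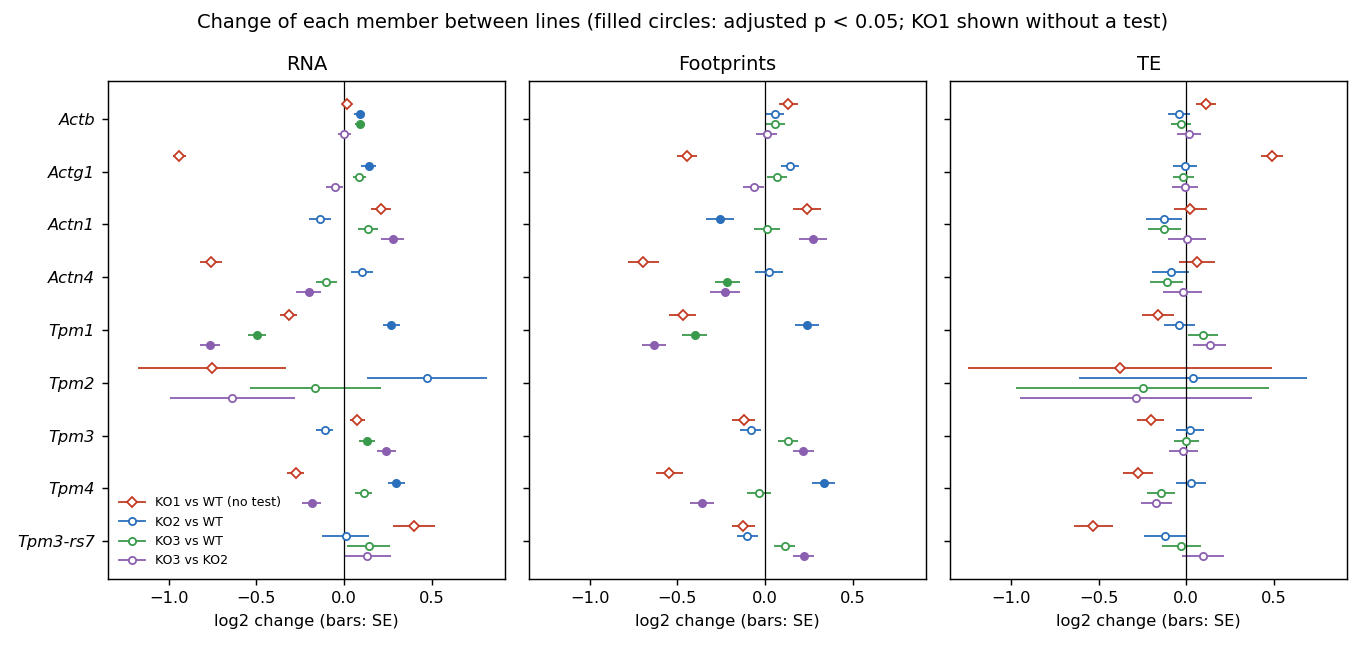
Log2 changes of RNA, footprints and TE for each gene, with bars of 1 SE. Diamonds are KO1 against WT, shown without a test, and circles are KO2 and KO3 against WT and KO3 against KO2, filled where the edgeR adjusted p was under 0.05. Tpm2 has no footprint values. Tpm1 lies right of 0 in KO2 and left of 0 in KO3, and no circle is filled in the TE panel.

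The clones KO2 and KO3 were then compared with each other, in libraries that had no part in the comparison of KO1 with WT. The members were still chosen with earlier results of these data known. RNA of 5 of 9 members differed, beside 49.2% of all genes, and footprints of 6 of 8, beside 37.1%. These 6 include both Tpm3 and Tpm3-rs7, whose footprint counts went together in every library, so their calls are not independent. Tpm1 differed most, with KO3 lower by a log2 change of -0.76 in RNA (SE 0.0584, edgeR adjusted p = 7.25e-12) and -0.64 in footprints (SE 0.0696, edgeR adjusted p = 1.9e-08). Tpm4 was also lower in KO3, by -0.18 in RNA (SE 0.0548, edgeR adjusted p = 0.00762) and -0.36 in footprints (SE 0.0675, edgeR adjusted p = 0.000105). Tpm3 and Actn1 were higher in KO3, with RNA changes of 0.24 and 0.28 and footprint changes of 0.22 and 0.27, while Actn4 was lower, by -0.20 and -0.23.

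Neither actin passed the test between these clones, in RNA (0.00 and -0.05, edgeR adjusted p = 0.968 and 0.399) or footprints (0.01 and -0.07, edgeR adjusted p = 0.933 and 0.419). No member was called for TE, beside 0.215% of all genes, with 0 at an unadjusted p under 0.05 and 0 by DESeq2. Calls of Actn4 were lost when KO2 replicate 1 or KO3 replicate 1 of the assay was left out, down to -0.10 in RNA and -0.05 in footprints without KO2 replicate 1 (edgeR adjusted p = 0.35 and 0.757), and RNA of Tpm4 was not called without KO2 or KO3 RNA-seq replicate 2 (edgeR adjusted p = 0.0652 and 0.0977). Footprints of Actn1 were not called without KO2 Ribo-seq replicate 2 or KO3 Ribo-seq replicate 1 (edgeR adjusted p = 0.196 and 0.0729), nor those of Tpm3-rs7 without the latter (0.0641). DESeq2 called neither Actn4 nor the footprints of Actn1.

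Other genes of the actin cytoskeleton were read from lists, by RNA. Their counts stand beside the same shares of all genes called in RNA, 19.9% in KO2 (10.9% higher) and 44% in KO3 (21.7% higher and 22.3% lower). Genes named from each list were the up to 2 with the greatest RNA change among those called in both KO2 and KO3. Their p-values in these clones were thus fixed in part by that choice. Of 10 tested genes that bind or sever actin, 1 was higher and 2 lower in KO2, and 2 higher and 5 lower in KO3. Among them were Cfl2, a muscle-type cofilin that severs filaments, and Gsn, gelsolin, which severs and caps them. RNA of Cfl2 was at 45.3 and 43.0 TPM in WT, 47.2 and 50.2 in KO1, with 26.6 and 27.1 in KO2 and with 16.1 and 13.3 in KO3, which gave changes of -0.73 in KO2 (edgeR adjusted p = 0.000418) and -1.53 in KO3 (edgeR adjusted p = 7.33e-12). Gsn stood at 14.9 and 14.5 in WT, 12.7 and 13.9 in KO1, with 27.1 and 25.4 in KO2 and with 29.5 and 31.2 in KO3, higher by 0.83 and 1.11 (edgeR adjusted p = 4.07e-07 and 1.39e-15).

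Of 5 tested end-capping genes, Capg, a gelsolin relative that caps filaments without severing them, was the 1 called in KO2 and 1 of 2 called in KO3. It was at 32.9 and 28.7 TPM in WT, 2.33 and 3.48 in KO1, with 11.5 and 13.4 in KO2 and with 4.31 and 4.11 in KO3. All 6 KO libraries were below WT, with changes of -3.37 in KO1, -1.31 in KO2 (edgeR adjusted p = 7.13e-08) and -2.81 in KO3 (edgeR adjusted p = 1.22e-21), larger than that of any of the 9 members.

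Among formins, which elongate filaments, 7 genes were tested. In KO2 none was higher and 2 were lower, and in KO3 2 were higher and 2 lower. Fmnl2 was lower in KO2 (-0.44, edgeR adjusted p = 6.29e-05) and higher in KO3 (0.44, edgeR adjusted p = 1.11e-06), and so was Inf2 (-0.33 and 0.22, edgeR adjusted p = 0.00108 and 0.00482). Of nonmuscle myosin II genes, the motors that pull on tropomyosin-coated filaments, Myl6, a light chain, likewise went from -0.29 in KO2 (edgeR adjusted p = 0.000117) to 0.23 in KO3 (edgeR adjusted p = 3.72e-05), while the heavy chain Myh9 was higher in both, by 0.16 and 0.11 (edgeR adjusted p = 0.0161 and 0.0326). In total 1 of 6 myosin II genes was higher and 1 lower in KO2, and 3 of 5 were higher in KO3. Of 9 Arp2/3 subunits, which nucleate branches, 3 were higher and 1 lower in KO2, and 1 was higher and 1 lower in KO3.

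Of 10 tested cross-linkers other than the alpha-actinins, 3 were higher and 1 lower in KO2, and 5 higher and 2 lower in KO3. Palld, palladin, which binds alpha-actinin, was higher by 0.46 in KO2 (edgeR adjusted p = 2.57e-05) and 0.23 in KO3 (edgeR adjusted p = 0.0048). Lcp1, plastin of blood cells, was called in both clones but at no more than 2.62 TPM. Of focal adhesion genes, which tie filaments to the matrix, 4 of 10 were higher and 1 lower in KO2, and 1 of 11 was higher and 4 lower in KO3. Bcar1, an adhesion scaffold, was higher in KO2 by 0.52 (edgeR adjusted p = 3.63e-08) and lower in KO3 by -0.25 (edgeR adjusted p = 0.00011), and Zyx, zyxin, which marks adhesions under tension, was higher by 0.18 (edgeR adjusted p = 0.0359) and lower by -0.32 (edgeR adjusted p = 2.64e-05).

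Between KO3 and KO2, 2 focal adhesion genes of 10 were higher and 6 lower in KO3, with a median of -0.24 beside -0.00 for all genes, of which 49.2% were called. Targets of SRF and MRTF other than the members gave 3 higher and 1 lower of 11 in KO2 (19.9% of all genes called) and 6 higher and 1 lower in KO3 (44%). As a description, 2 were higher and 7 lower in KO1 (46.7% of all genes), where their median was -0.37 beside 0.01 for all genes. Egr1, an immediate early gene, was lower in KO2 (-0.61, edgeR adjusted p = 4.57e-05) and higher in KO3 (0.30, edgeR adjusted p = 0.000629), with -1.95 in KO1. For TE, no gene of these lists was called in KO2 or KO3 by edgeR. Of the other actins, 1 of 5 was tested in RNA in KO2 and KO3 and was not called, and the 2 muscle alpha-actinins were too low to test in RNA.

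Over the 8 RNA-seq libraries, the genes most like Tpm1 in log2 CPM were, out of 7091 ranked, Scpep1, Dlg1, Olfml2b, Sec16b and Pcbp2, with Pearson's r of 0.994 to 0.988. Those most like Actg1 were Ptpre, Susd1, Onecut2, Ap2a2 and Cyhr1, with r of 0.997 to 0.995. The 8 libraries are 4 lines in 2 replicates, so such values rest on few independent points and describe this set alone.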

How the data were processed

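Counts were deposited by the authors as 1 table of raw reads per transcript for 8 RNA-seq and 8 Ribo-seq libraries. Per the labels and the study's methods, reads were trimmed (fastp 0.21.0), cleared of noncoding RNA, aligned to mm10 (STAR 2.7.0a) and assigned to GENCODE transcripts, with footprints placed by their A site and 5 codons left out at each coding end. The study's read statistics list uniquely mapped reads, but whether the deposited table holds those alone is not stated in the sources used here, and the counting scripts the methods point to were not used here. The labels name polyA RNA, whereas the protocol describes depletion of ribosomal RNA.

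From these counts, edgeR 4.0.16 (R 4.3.3; filterByExpr, TMM within each assay, quasi-likelihood test, Benjamini-Hochberg over all transcripts, called at an adjusted p under 0.05) was fitted to the libraries of the 2 lines compared, with TE as the interaction of line and assay and no block. It was tested on simulated data. TPM was computed over 1 transcript per gene from counted codons. Coding sequences and 30-nt and 100-nt windows came from GRCm38 with GENCODE genes (50 of 51 transcripts matched, 47 with equal length), and promoters from RefSeq.

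RNA-seq and Ribo-seq of a replicate came from 1 lysate, so lysates pair the assays. Replicate differences correlated within lines over 2180 genes, at 0.312, 0.359, 0.151 and 0.176 in WT, KO1, KO2 and KO3. A lysate term changed no call of a member in KO2, KO3 or KO3 against KO2. The members and all lists were chosen with earlier results of these data known. Genes named from lists were the up to 2 with the greatest RNA change among those called in both KO2 and KO3, and likeness used genes with a mean of at least 20 CPM. Counts in a library limit precision: Ribo-seq libraries were the shallower.

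Alternatives were an adjusted p under 0.1, DESeq2's size factors, no filter, 1 transcript per gene, all 4 lines in 1 fit, replicate and lysate blocks, DESeq2 1.42.0 and leaving out each library.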

Additional observations from a re-analysis of the deposited data

Results flagged for a closer look

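Differences between the clones KO3 and KO2, tested directly by edgeR (log2 changes, KO3 against KO2, adjusted over all transcripts), stood out for 5 members in RNA and 6 in footprints. Both are clones with the same exon deleted, but they were made with different pairs of guide RNAs. Libraries of neither had a part in the comparison of KO1 with WT. The largest was Tpm1, at -0.762 in RNA (SE 0.0584) and -0.635 in footprints (SE 0.0696), and KO3 was lower than KO2 in 2 of 2 replicates of each assay. Tpm4 was also lower in KO3, at -0.183 in RNA (SE 0.0548) and -0.36 in footprints (SE 0.0675), as was Actn4, at -0.202 (SE 0.0716) and -0.23 (SE 0.0845). Higher in KO3 were Actn1, at 0.277 in RNA (SE 0.0653) and 0.274 in footprints (SE 0.081), and Tpm3, at 0.242 (SE 0.0544) and 0.218 (SE 0.0607). For Tpm3-rs7 the footprint difference was 0.219 (SE 0.0613), and its RNA difference was 0.13 (SE 0.132). Footprint counts of Tpm3-rs7 went together with those of Tpm3, as given above. What sets the clones apart was not tested.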

How the results depend on the processing

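TE counts in KO2, KO3 and KO3 against KO2 were 0 under each alternative run. Of alternatives tried for tested changes of single members, 802 kept direction and side of the threshold, 36 lost a call, 13 gained one and 58 changed sign, and the cause was not tested. Replicate differences correlated between lines at 0.16 to 0.248 in footprints and -0.0639 to 0.46 in RNA. The labels do not say that a number marks a shared day or batch, and a line has only 2 replicates, so numbers were not taken to pair lines. With a replicate block, members called for RNA in KO3 numbered 5, with Actn1 (0.14, edgeR adjusted p = 0.0438) and Tpm4 (0.11, edgeR adjusted p = 0.0447) gained, footprints of Actg1 in KO2 were called (0.14, edgeR adjusted p = 0.0242), and the transcripts called for TE in KO1 went from 65 to 253 (295 with a lysate term).

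Members called for RNA in KO3 were 6 at an adjusted p under 0.1 and with 1 transcript per gene. DESeq2 called 1 for TE in KO1, 2 for RNA and 1 for footprints in KO2, and 1 for RNA and 1 for footprints in KO3. Leaving out 1 library at a time, members called ranged from 1 to 2 for TE in KO1, 2 to 5 for RNA and 1 to 3 for footprints in KO2, 1 to 5 for RNA and 1 to 2 for footprints in KO3, and 3 to 6 for footprints in KO3 against KO2, the lowest without KO3 Ribo-seq replicate 1. The low counts came without a WT RNA-seq replicate for RNA, without KO2 Ribo-seq replicate 2 for footprints of KO2, and without either WT Ribo-seq replicate or KO3 Ribo-seq replicate 1 for footprints of KO3. In KO1, TE fell to 1 without KO1 Ribo-seq replicate 1 or any 1 RNA-seq library, and RNA of KO3 rose to 5 without KO3 RNA-seq replicate 2.

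Signs changed only for changes that were not called. TE of Actg1 in KO2 was 0.0075 with 1 transcript per gene, TE of Tpm3 in KO3 was -0.0015 with no filter and -0.000254 with a lysate term, and RNA of Actb in KO3 against KO2 was -0.00136 with DESeq2's size factors and -0.00137 with DESeq2. Leaving out 1 library, these ranges held 0. In KO2, RNA of Tpm3-rs7 was -0.17 to 0.16, footprints of Actn4 -0.16 to 0.17, and TE of Actg1 -0.063 to 0.061, Tpm1 -0.099 to 0.019, Tpm2 -0.20 to 0.29, Tpm4 -0.014 to 0.083, Actn4 -0.27 to 0.054 and Tpm3-rs7 -0.26 to 0.065. In KO3, RNA of Tpm2 was -0.46 to 0.090, footprints of Actn1 -0.045 to 0.061 and Tpm4 -0.12 to 0.043, and TE of Actg1 -0.051 to 0.014, Tpm3 -0.018 to 0.021 and Tpm3-rs7 -0.076 to 0.023. In KO3 against KO2, RNA of Actb was -0.0073 to 0.014, Actg1 -0.11 to 0.0057 and Tpm3-rs7 -0.0089 to 0.30, footprints of Actb -0.0023 to 0.037, and TE of Actb -0.021 to 0.025, Actg1 -0.067 to 0.051, Actn1 -0.12 to 0.15, Actn4 -0.17 to 0.16, Tpm2 -0.54 to 0.0069, Tpm3 -0.047 to 0.0046 and Tpm3-rs7 -0.081 to 0.24.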
